A study of Homo sapiens with 9 samples.

Results

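Among the 26485 genes measured in MDA-MB-231 cells, 25 symbols begin with DUSP, the name of the dual-specificity phosphatases, and 8 of them are described here: *DUSP4*, *DUSP7*, *DUSP9*, *DUSP10*, *DUSP11*, *DUSP18*, *DUSP23* and *DUSP28*. They are 8 of the DUSP genes that the study did not place in its heatmap of this family, which held 11 others. The remaining 6 symbols (*DUSP13*, *DUSP15*, *DUSP21*, *DUSP26*, *DUSP27* and the pseudogene *DUSP5P1*) are in neither set, and none of them had more than 67 reads in a library. The study presented the 11 genes of its heatmap as altered in these same libraries and did not state a rule for choosing them, so the number of the 8 that changed may not be independent of that choice.

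Dual-specificity phosphatases remove phosphate from tyrosine as well as from serine and threonine. The typical members, called MAP kinase phosphatases, carry a kinase-binding domain and switch off ERK, JNK or p38 by dephosphorylating the activation loop, and several of them are themselves induced by the pathway that they restrain. The atypical members are small, lack that domain and act on varied substrates, RNA among them. Of the 8 genes, *DUSP4*, *DUSP7*, *DUSP9* and *DUSP10* encode MAP kinase phosphatases and *DUSP11*, *DUSP18*, *DUSP23* and *DUSP28* encode atypical enzymes.

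MDA-MB-231 is a long-established line of human breast cancer cells of the triple-negative kind. RNA was sequenced from cells stably expressing a nonspecific (NS) shRNA, *ASAH1* shRNA #1 or *ASAH1* shRNA #2, with 3 libraries in each of the 3 groups, which the study calls biological replicates. All cells carried a hairpin, grew in the same serum-containing medium and received no drug, and the data come from 1 cell line. *ASAH1* encodes acid ceramidase, the lysosomal enzyme that cleaves ceramide, and each *ASAH1* hairpin was compared with the NS hairpin to ask which genes respond to its loss.

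The libraries held between 23806003 and 49659106 reads on genes. *ASAH1* itself had normalised read counts of 4436, 4512 and 4518 with NS shRNA and 1268, 1365 and 1348 with shRNA #1. Scaled with the libraries of shRNA #2, the NS shRNA libraries had 4787, 4898 and 4871 and those of shRNA #2 had 780, 807 and 762. Of the defining markers, *VIM* (1174 to 2128 reads per 1000000 reads of the library, RPM) and *CD44* (656 to 894) were abundant in every library, the oestrogen and progesterone receptor genes *ESR1* and *PGR* did not exceed 0.084, the leukocyte gene *PTPRC* did not exceed 0.258 and the endothelial gene *CDH5* did not exceed 0.09. *ERBB2* transcript was present at 61.2 to 105 RPM, and the endothelial *PECAM1* (1.09 to 3.10) and fibroblast *LUM* (0.869 to 4.45) were detected at low levels, while *CD3E* and *DCN* did not exceed 0.06. Some line markers differed by group. In the order NS shRNA, shRNA #1 and shRNA #2, *EGFR* had 86.1 to 132, 202 to 272 and 192 to 263 RPM. *KRT18* had 345 to 396, 205 to 243 and 341 to 418, and *VIM* 2077 to 2128, 1715 to 1805 and 1174 to 1222. These differences were not tested.

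The promoters of the members are shown because the members that changed did so with different hairpins, and the study examined the promoter of another DUSP gene, *DUSP5*. There it reported binding of the factor SP1 by CUT&RUN, increased with *ASAH1* shRNA, and lower DUSP5 after knockdown of SP1. RefSeq windows on GRCh38.p14, running from 250 bases before to 50 after a transcript start, were found for 7 of the 8 genes, 11 windows in all. The 250 bases upstream of the start are printed 5′ to 3′ for *DUSP7*, *DUSP10*, *DUSP11* and *DUSP18*. Their calls against NS shRNA were not lost by leaving out any library. The GC box (GGGCGG on either strand, so CCGCCC on the printed one) is in capitals. Where a gene had more than 1 window, as did *DUSP10* and *DUSP11*, the first is printed. GC boxes after the start, at 42 in *DUSP7* and 8 in *DUSP18*, were counted but are not printed.
DUSP7, chr3:52056572-52056821, minus strand: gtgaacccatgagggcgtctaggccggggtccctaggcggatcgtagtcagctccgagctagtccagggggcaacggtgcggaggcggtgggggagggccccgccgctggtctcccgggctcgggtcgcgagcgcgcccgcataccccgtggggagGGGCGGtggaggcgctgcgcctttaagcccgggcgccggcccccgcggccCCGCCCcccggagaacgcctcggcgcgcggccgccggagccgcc
DUSP10, chr1:221742090-221742339, minus strand: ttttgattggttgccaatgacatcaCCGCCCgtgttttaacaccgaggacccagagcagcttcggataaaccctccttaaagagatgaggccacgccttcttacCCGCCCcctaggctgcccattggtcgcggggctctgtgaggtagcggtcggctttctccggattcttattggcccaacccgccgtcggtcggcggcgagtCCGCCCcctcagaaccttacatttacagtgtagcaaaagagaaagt
DUSP11, chr2:73780150-73780399, minus strand: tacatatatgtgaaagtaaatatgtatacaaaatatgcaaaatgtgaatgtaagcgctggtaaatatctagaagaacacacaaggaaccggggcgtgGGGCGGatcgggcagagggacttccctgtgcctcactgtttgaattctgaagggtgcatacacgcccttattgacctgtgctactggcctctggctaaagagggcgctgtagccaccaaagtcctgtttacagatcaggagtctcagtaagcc
DUSP18, chr22:30667876-30668125, minus strand: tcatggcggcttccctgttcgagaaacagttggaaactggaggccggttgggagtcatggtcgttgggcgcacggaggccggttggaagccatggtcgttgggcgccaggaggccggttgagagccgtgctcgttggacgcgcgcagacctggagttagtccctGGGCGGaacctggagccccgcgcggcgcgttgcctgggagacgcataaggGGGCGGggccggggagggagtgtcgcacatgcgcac

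GC boxes, the short motif that factors of the SP family bind, were found in 10 of the 11 windows, against 45.0% of all 35116 windows of the same length. The windows are not all separate promoters: those of *DUSP11* overlap and hold the same GC box. The share over all windows was not matched for GC content. In the first *DUSP10* window 3 copies lay on the opposite strand, with first bases at -46, -146 and -225 from the start, the single copy of the first *DUSP11* window lay at -153, and *DUSP23* had 4 copies. The *DUSP7* window had 78.0% GC and the first *DUSP10* window 55.0%. An E-box (CACGTG) was found in the *DUSP23* window and the second *DUSP28* window, against 7.26% of all windows. The core of the cAMP response element (TGACGT, either strand, 7.98% of all windows) and the AP-1 site (TGANTCA, 7.71%) were found in none of the 11. These are matches of letters and were not tested as binding sites. Of the members that fell, *DUSP18* held GC boxes and *DUSP4* had no RefSeq window.

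With *ASAH1* shRNA #1, 4 of the 7 members that could be tested changed: *DUSP10*, *DUSP11* and *DUSP28* rose and *DUSP4* fell. With *ASAH1* shRNA #2, 2 of 7 changed: *DUSP7* rose and *DUSP18* fell. No member changed with both hairpins on the deposited scale. A change here is an adjusted p below 0.05 from limma on log2(normalised count + 1), two-sided, with Benjamini-Hochberg adjustment over all genes with a mean normalised count of at least 10, and all log2 fold changes against NS shRNA below are on that scale. By this rule 66.1% of the 14341 genes tested changed with shRNA #1 (32.8% higher and 33.3% lower) and 66.9% of the 14250 tested with shRNA #2 (33.5% higher and 33.4% lower), so the members changed no more often than genes at large. The median log2 fold change of the 7 members was 0.10 with shRNA #1 and 0.13 with shRNA #2, beside 0.001 and 0.013 for all genes. Both comparisons used the same NS shRNA libraries, so they are not independent of each other.

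Directions are relative to the middle of all genes, where the deposited scaling puts its zero. The actin gene *ACTB*, which the study used as its reference in PCR, itself fell by 0.89 with shRNA #1 and by 0.52 with shRNA #2 on the log2 scale (limma, adjusted p = 8.83e-07 and 1.1e-05), and relative to it the median of all genes moved to 0.885 and 0.531. On that scale 6 members were called with shRNA #1, all of them higher. With shRNA #2 it was 7, 6 higher and 1 lower. So 6 members were then called with both hairpins, *DUSP18* in opposite directions. Higher calls were the rule on that scale: of the calls among all genes, 96.4% were higher with shRNA #1 and 85.3% with shRNA #2. The share of all genes called on that scale is not given here.

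**Figure D1:**
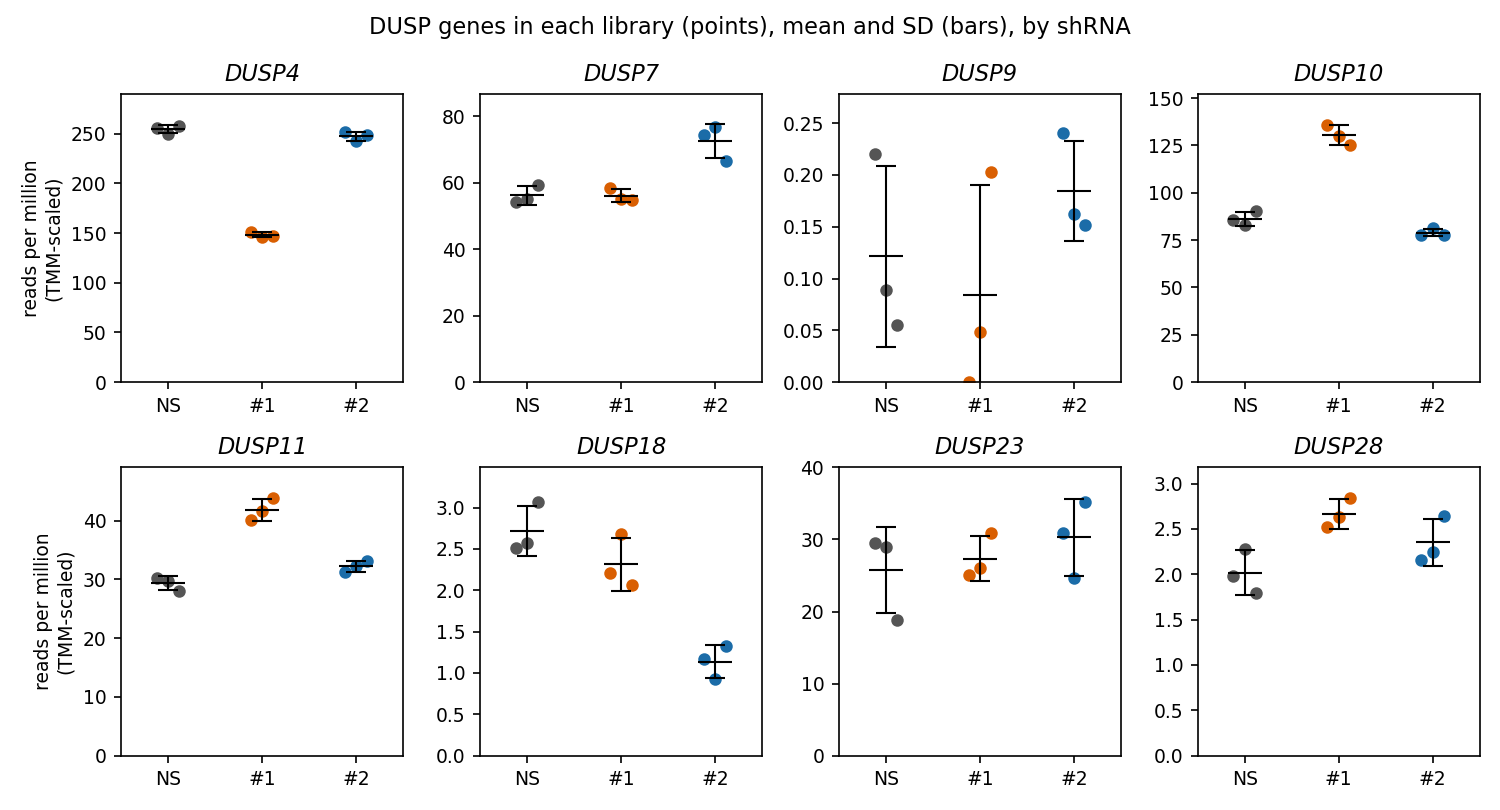
RPM (reads per 1000000, TMM-scaled, vertical axis from 0) of the 8 DUSP genes in each of the 9 libraries, grouped by NS shRNA, ASAH1 shRNA #1 and ASAH1 shRNA #2, with points for libraries and bars for the mean and SD. DUSP4 is low and DUSP10 and DUSP11 are high in the shRNA #1 libraries, DUSP18 is low in the shRNA #2 libraries, and DUSP23 spreads as widely within groups as between them.

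*DUSP4* encodes an inducible nuclear MAP kinase phosphatase that acts on ERK, JNK and p38. Its normalised read counts were 8502, 8274 and 8603 with NS shRNA and 5036, 4816 and 4889 with shRNA #1. All 3 libraries of shRNA #1 were below all 3 of NS shRNA. It fell by 0.78 on the log2 scale (SE 0.043, limma, adjusted p = 4.31e-07), to 0.581 of the NS shRNA level. Measured relative to *ACTB*, its value was 0.10 (limma, adjusted p = 0.202), since *ACTB* fell by about as much.

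With shRNA #2, *DUSP4* had 9022, 8698 and 8886, beside 9174, 8982 and 9276 for the NS shRNA libraries on the same scale. These groups overlapped. The log2 fold change was -0.044 with a 95% interval from -0.15 to 0.062 (limma, adjusted p = 0.435), an interval that does not reach the change seen with shRNA #1. The gene lies on chromosome 8. As these are bulk libraries, a lower level in every cell and a loss from some of the cells cannot be told apart here or for the genes that follow.

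*DUSP10*, on chromosome 1 of hg38 from 221701424 to 221742089 on the minus strand (4 exons), encodes a MAP kinase phosphatase that prefers JNK and p38 over ERK. It had normalised counts of 2841, 2747 and 3020 with NS shRNA and 4525, 4290 and 4144 with shRNA #1. The groups did not overlap, and *DUSP10* rose by 0.59 on the log2 scale (SE 0.055, limma, adjusted p = 1.18e-05), or 1.51-fold.

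With shRNA #2 it had 2795, 2912 and 2785 beside 3066, 2982 and 3256 with NS shRNA. All 3 libraries of shRNA #2 were below those of NS shRNA, but the change of -0.13 (95% interval -0.259 to -0.0032) did not pass the test (limma, adjusted p = 0.0658). It passed after upper quartile rescaling (-0.18, limma, adjusted p = 0.0208) and when all 9 libraries were fitted together (-0.13, limma, adjusted p = 0.0436), and relative to *ACTB* it was 0.39 in the opposite direction (limma, adjusted p = 0.000876).

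*DUSP7* and *DUSP9* encode cytoplasmic MAP kinase phosphatases with a preference for ERK. *DUSP7* lies on chromosome 3 from 52048919 to 52056571 on the minus strand (3 exons). Its normalised counts were 1945, 1979 and 2140 with NS shRNA and 2669, 2749 and 2388 with shRNA #2. The groups did not overlap, and it rose by 0.36 on the log2 scale (SE 0.071, limma, adjusted p = 0.000991), or 1.29-fold.

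With shRNA #1, *DUSP7* had 1947, 1819 and 1820 beside 1802, 1823 and 1985 with NS shRNA. The groups overlapped fully, and the log2 fold change of -0.0059 had a 95% interval from -0.138 to 0.126 (limma, adjusted p = 0.935). Its sign turned with upper quartile rescaling and with 3 of the libraries left out, and relative to *ACTB*, itself lower, it was 0.88 (limma, adjusted p = 2.26e-06).

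*DUSP9*, on chromosome X from 153642492 to 153651326 on the plus strand (4 exons), had 0 to 8 reads in a library and was below the minimum for the test across genes. It had 7, 3 and 2 reads with NS shRNA, 0, 2 and 7 with shRNA #1 and 8, 6 and 7 with shRNA #2. The reads of shRNA #1 and NS shRNA overlapped, and so did those of shRNA #2 and NS shRNA. The mean of log2(normalised count + 1) differed from NS shRNA by -0.74 with shRNA #1 (p = 0.4) and by 0.64 with shRNA #2 (p = 0.3, both two-sided exact permutation tests of 3 libraries against 3, n = 3 each, where the smallest possible p is 0.1). This design could not pass 0.05 whatever the values. Leaving out 1 library moved the differences between -1.49 and -0.0163 and between 0.296 and 1.08, and a pseudocount of 0.1 gave -1.75 with shRNA #1.

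*DUSP11* encodes an atypical enzyme that works on RNA: it removes phosphates from the 5′ end of transcripts. It lies on chromosome 2 from 73761782 to 73780132 on the minus strand (9 exons). Its normalised counts were 1008, 983 and 935 with NS shRNA and 1336, 1373 and 1454 with shRNA #1. Each library of shRNA #1 was above each of NS shRNA, and *DUSP11* rose by 0.51 on the log2 scale (SE 0.060, limma, adjusted p = 5.47e-05), or 1.42-fold.

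With shRNA #2 it had 1124, 1159 and 1186 beside 1088, 1067 and 1008 with NS shRNA. The groups did not overlap here either, but the log2 fold change of 0.13 (95% interval -0.011 to 0.278) did not pass the test (limma, adjusted p = 0.0929). Relative to *ACTB* it was 0.66 (limma, adjusted p = 7.13e-06).

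*DUSP18*, on chromosome 22 from 30652051 to 30667887 on the minus strand (2 exons), encodes an atypical phosphatase that has been placed at mitochondria. It was one of the low members, with 34 to 111 reads in a library. Its normalised counts were 90.3, 92.7 and 110 with NS shRNA and 42.1, 33.0 and 47.3 with shRNA #2. Every library of shRNA #2 was below every NS shRNA library, and *DUSP18* fell by 1.25 on the log2 scale (SE 0.186, limma, adjusted p = 0.000157), to 0.42 of the NS shRNA level.

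With shRNA #1, *DUSP18* had 73.5, 88.4 and 68.2 beside 83.7, 85.4 and 102 with NS shRNA. The groups overlapped, and the log2 fold change of -0.24 had a 95% interval from -0.582 to 0.105 (limma, adjusted p = 0.194). Relative to *ACTB* it was 0.64 in the opposite direction (limma, adjusted p = 0.00601). In the GENCODE annotation *DUSP18* shares 1527 exon bases with *SLC35E4* on the opposite strand, which the strand-specific counting keeps apart, and 164 with a ribosomal protein pseudogene on its own strand, whose reads could not be told apart from its own.

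*DUSP23*, on chromosome 1 from 159780932 to 159782543 on the plus strand (2 exons), encodes one of the smallest atypical phosphatases. It had normalised counts of 983, 959 and 630 with NS shRNA and 836, 858 and 1022 with shRNA #1. Beside shRNA #2 the NS shRNA libraries had 1060, 1041 and 679, and those of shRNA #2 had 1111, 885 and 1261. NS shRNA replicate 3 was low, and both hairpins overlapped with NS shRNA.

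The log2 fold change of *DUSP23* was 0.10 with shRNA #1 (95% interval -0.255 to 0.458, limma, adjusted p = 0.592) and 0.24 with shRNA #2 (-0.139 to 0.623, limma, adjusted p = 0.235). Without NS shRNA replicate 3 the value with shRNA #1 turned to -0.11 (limma, adjusted p = 0.316) and that with shRNA #2 went to 0.032 (limma, adjusted p = 0.826). Leaving out shRNA #2 replicate 2 instead gave 0.38 and leaving out its replicate 3 gave 0.13 with shRNA #2 (limma, adjusted p = 0.0677 and 0.531). Relative to *ACTB* both passed the test, at 0.99 and 0.76 (limma, adjusted p = 1.84e-05 and 0.000478).

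*DUSP28*, on chromosome 2 from 240560054 to 240565256 on the plus strand (2 exons), encodes an atypical phosphatase, and shares 463 exon bases with *ANKMY1* on the opposite strand. With 63 to 122 reads in a library, it had normalised counts of 65.9, 75.6 and 60.0 with NS shRNA and 84.2, 86.8 and 94.2 with shRNA #1. The groups did not overlap, and it rose by 0.40 on the log2 scale (SE 0.143, limma, adjusted p = 0.0333), or 1.32-fold.

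That call was the least firm of the 6: it was lost with DESeq2 (adjusted p = 0.0869), with no filter on low genes (limma, adjusted p = 0.0757) and without any of 5 of the 6 libraries, namely NS shRNA replicates 1 and 3 (limma, adjusted p = 0.0705 and 0.105) and shRNA #1 replicates 1, 2 and 3 (limma, adjusted p = 0.052, 0.0751 and 0.102). With shRNA #2, *DUSP28* had 77.6, 80.7 and 94.6 beside 71.1, 82.0 and 64.7 with NS shRNA. The groups overlapped, and the log2 fold change was 0.21 (95% interval -0.143 to 0.571, limma, adjusted p = 0.261). Relative to *ACTB* it passed the test at 0.73 (limma, adjusted p = 0.00151).

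**Figure D2:**
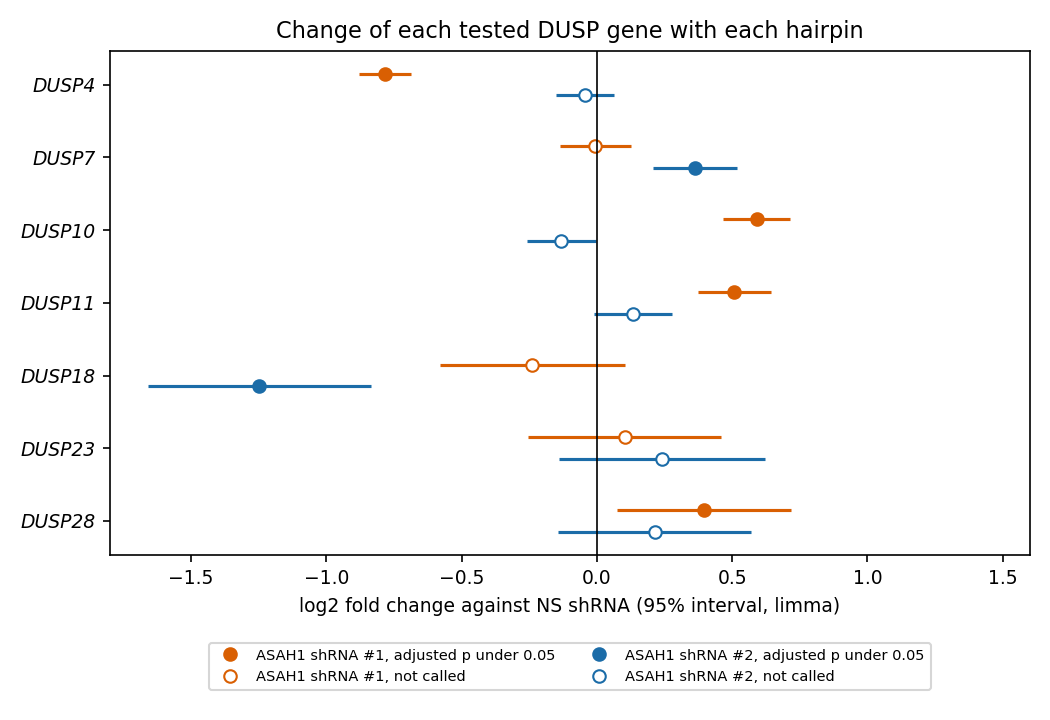
Log2 fold change against NS shRNA (horizontal axis) of the 7 tested DUSP genes with each ASAH1 shRNA, as a point with its 95% interval from limma, filled where the adjusted p is below 0.05. No gene has 2 filled points. On the deposited scale DUSP4 lies at -0.78 with shRNA #1 and DUSP18 at -1.25 with shRNA #2, while relative to ACTB the DUSP4 value becomes 0.10.

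Counted without a test, the hairpin and NS shRNA libraries did not overlap for 4 of the 7 members with shRNA #1 (*DUSP4*, *DUSP10*, *DUSP11* and *DUSP28*) and for 4 of 7 with shRNA #2 (*DUSP7*, *DUSP10*, *DUSP11* and *DUSP18*), where 69.2% and 70% of all genes tested did not overlap. *DUSP10* and *DUSP11* were therefore separated from NS shRNA with both hairpins, *DUSP10* in opposite directions and *DUSP11* upwards in both, on the deposited scale. Relative to *ACTB* both *DUSP10* values were positive.

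A call with one hairpin and none with the other is no test of a difference, so the hairpins were compared directly, by the quasi-likelihood test of edgeR on the reads recovered for all 9 libraries. Here 5 of 7 members differed: *DUSP4* and *DUSP7* were higher with shRNA #2 and *DUSP10*, *DUSP11* and *DUSP18* were lower. Of the 14714 genes tested 63.3% differed by the same rule, 31.1% higher and 32.1% lower with shRNA #2. Upper quartile normalization gave 3744 genes higher and 5607 lower in place of 4581 and 4730, with the same number of members in each direction. These are the 5 members whose hairpin libraries did not overlap, as was the case for 67% of all genes tested. Since no deposited table holds both hairpins, their libraries were put on 1 scale here.

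In TMM-scaled RPM, not the unscaled RPM of the markers, *DUSP4* had 151, 146 and 147.5 with shRNA #1 and 251.3, 242.6 and 248.2 with shRNA #2. The log2 difference was 0.73 (edgeR, adjusted p = 5.2e-08). *DUSP10* had 135.6, 130.1 and 125.1 with shRNA #1 and 77.8, 81.3 and 77.8 with shRNA #2, a difference of -0.73 (edgeR, adjusted p = 4.31e-07). These were the clearest differences between the hairpins by adjusted p, nearly equal in size and opposite in direction.

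*DUSP18* differed by -1.03 (edgeR, adjusted p = 0.000516), the widest difference of the 7, with 2.2, 2.68 and 2.06 TMM-scaled RPM against 1.17, 0.922 and 1.32. *DUSP11* differed by -0.38 (edgeR, adjusted p = 0.000117) and *DUSP7* by 0.36 (edgeR, adjusted p = 0.000423). For the other two the 95% intervals, from a limma fit of the 9 libraries, ran from -0.235 to 0.515 for *DUSP23* (edgeR difference 0.14, adjusted p = 0.47) and from -0.495 to 0.13 for *DUSP28* (-0.18, adjusted p = 0.3). Beside these values stands the targeted gene: *ASAH1* was lower with shRNA #2 than with shRNA #1 by 0.88 on the log2 scale (edgeR, adjusted p = 6.82e-08). The part of the unequal knockdown in the members' differences was not tested.

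Per length, as TMM-scaled reads per 1000000 per kilobase of exon, the members fell into 3 tiers in the NS shRNA libraries. *DUSP4* had 35.0 ± 0.545 (SD, n = 3), *DUSP23* 31.2 ± 7.27 and *DUSP10* 30.5 ± 1.34. *DUSP4* (34.4 to 35.4) stood above *DUSP10* (29.3 to 32.0) in every library, while *DUSP23* (22.8 to 35.7) overlapped with both. *DUSP7* at 9.92 ± 0.494 and *DUSP11* at 6.75 ± 0.275 followed without overlap, but over the bases of the canonical transcript alone *DUSP11* (18.7 ± 0.761) was above *DUSP7* (16.7 ± 0.834), so their order depends on the length used.

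*DUSP18* at 0.612 ± 0.0678, *DUSP28* at 0.408 ± 0.0495 and *DUSP9* at 0.0439 ± 0.0315 (SD, n = 3 each) made up the low tier, in this order in every NS shRNA library. The leading gene was not the same in each group: *DUSP10* had the highest mean with shRNA #1 (46.1 ± 1.87, against 20.4 ± 0.347 for *DUSP4*), without overlap with any other member. With shRNA #2 *DUSP23* had the highest mean (36.6 ± 6.4), with a range that held that of *DUSP4* (34.0 ± 0.6), but over the canonical transcript *DUSP4* led (44.5 ± 0.786, against 38.0 ± 6.64 for *DUSP23*). In the low tier *DUSP28* (0.475 ± 0.0517) stood above *DUSP18* (0.256 ± 0.0454) with shRNA #2, the reverse of their order with NS shRNA. These levels are a description and were not tested.

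**Figure D3:**
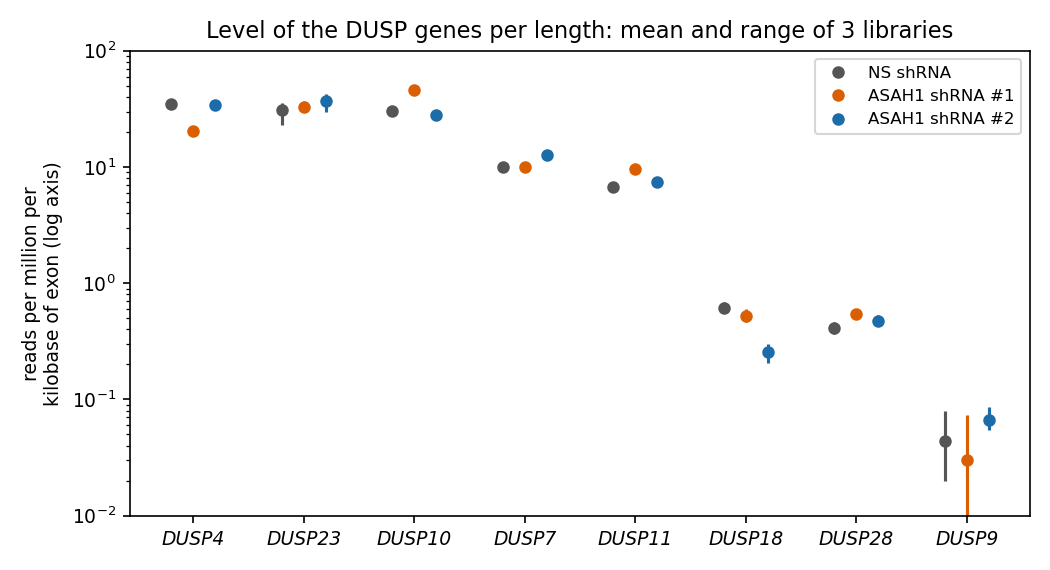
Level per length of the 8 DUSP genes in each group, in reads per 1000000 per kilobase of exon on a log axis, ordered by the NS shRNA mean, with points for the mean of 3 libraries and lines for their range (the line of DUSP9 with shRNA #1 reaches 0 and is drawn to the edge). DUSP4, DUSP23 and DUSP10 stand between 20.4 and 46.1 and DUSP9 stays under 0.1.

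For the 6 members that changed with a hairpin, the genes of most similar profile were sought among 14075 genes. The measure was the root mean square difference of log2(TMM-scaled RPM + 1), each gene centred on its mean over the 9 libraries. Nearest to *DUSP4* were *ADCY6* (difference 0.0378), *TCEAL8* (0.0432) and *CXXC5* (0.0441), small beside the spread of *DUSP4* itself on this scale (0.357). The neighbours of *DUSP10* (spread 0.315) were *OSBPL6* (0.0516), *GLTSCR1L* (0.0523) and *C10orf2* (0.057), and those of *DUSP11* (0.215) were *ATG3* (0.0319), *UBE2C* (0.0465) and *TSTA3* (0.0466). All of these repeat their member's sign with both hairpins, which the measure favours.

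*DUSP7* (spread 0.182) was nearest to *NFIX* (0.0378), *WDR44* (0.039) and *MTX3* (0.0398), and *DUSP28* (0.141) to *MRPL47* (0.0293), *STAG3L4* (0.0434) and *WDR25* (0.0515). *DUSP18* (0.361) had more distant neighbours, *SFT2D3* (0.0839), *B3GNT8* (0.0882) and *B4GALT6* (0.0903). At the low RPM of *DUSP18* and *DUSP28* the added 1 shrinks changes, so their values are not comparable with those of the higher members. With shRNA #1, *NFIX*, *WDR44* and *MTX3* had log2 fold changes of 0.0494, 0.0246 and 0.0174, opposite in sign to the near-zero value of *DUSP7* (-0.0059). The neighbours of *DUSP18* and *DUSP28* had their member's sign with both hairpins. None of the nearest genes was a DUSP.

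The surrounding pathway was described by lists of its other parts. The list of 13 MAP kinases includes the ERK, JNK and p38 kinases on which the typical members act, and is not limited to them. Of the 13, 12 were tested: 2 rose and 6 fell with shRNA #1, with a median of -0.26. With shRNA #2, 2 rose and 7 fell, with a median of -0.39. The shares called, 8 of 12 and 9 of 12, stand beside the 66.1% and 66.9% of all genes given above, which are also the background of the lists that follow. The highest change with shRNA #1 was that of *MAPK8*, which encodes a JNK, from 1529 ± 59.3 to 2558 ± 32.4 normalised counts (SD, n = 3), a rise of 0.74 (limma, adjusted p = 1.71e-06). *MAPK11*, which encodes a p38 kinase, fell by 0.87 (limma, adjusted p = 0.000183), a fall that vanished relative to *ACTB* (0.011, limma, adjusted p = 0.93). With shRNA #2 *MAPK6* rose by 0.38 (limma, adjusted p = 0.00233) and *MAPK15*, with 14 to 59 reads, fell by 1.69 (limma, adjusted p = 0.000155).

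Of the 7 MAP kinase kinases, which phosphorylate the sites that the typical members clear, 1 rose and 3 fell with shRNA #1 and 3 rose and 2 fell with shRNA #2. *MAP2K3*, an activator of p38, rose with both, by 0.44 and 0.65 (limma, adjusted p = 0.00011 and 3.3e-06). *MAP2K6*, another activator of p38, fell with both, from 26.6 ± 5.28 to 1.62 ± 0.293 and from 28.8 ± 5.71 to 9.32 ± 0.681 normalised counts (SD, n = 3, limma, adjusted p = 3.76e-05 and 0.000981), with as few as 1 read in a library.

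Of 9 other phosphatases that act on MAP kinases, 7 were tested: 3 rose and 2 fell with shRNA #1 and 4 rose and 1 fell with shRNA #2. *PTPRR*, a tyrosine phosphatase that binds ERK, rose with both, by 2.11 and 0.48 (limma, adjusted p = 4.12e-08 and 0.00112), and the receptor phosphatase *PTPRJ* fell with both, by 1.04 and 0.42 (limma, adjusted p = 3.53e-06 and 0.000905). The 10 genes of RNA 5′ end processing and decay, set beside *DUSP11*, gave 5 rises and 0 falls with shRNA #1 and 6 rises and 1 fall with shRNA #2, beside the same 66.1% and 66.9% of all genes called. The cap methyltransferase gene *CMTR2* went from 801 ± 2.58 to 2294 ± 61.8 and from 866 ± 5.94 to 2372 ± 47.5 (SD, n = 3), rising by 1.52 and 1.45 (limma, adjusted p = 2.48e-08 and 2.34e-08), while *CMTR1* fell by 0.23 with shRNA #2 (limma, adjusted p = 0.0102). *NUDT16*, whose product removes caps, was the smallest rise with shRNA #1 (0.18, limma, adjusted p = 0.0158), a call lost without shRNA #1 replicate 1 (0.16, limma, adjusted p = 0.0665). Relative to *ACTB*, the fall of *PTPRJ* with shRNA #1 was not called (-0.15, limma, adjusted p = 0.218), and *PTPRJ* and *CMTR1* with shRNA #2 turned to 0.099 and 0.29 (limma, adjusted p = 0.401 and 0.0107).

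**Figure D4:**
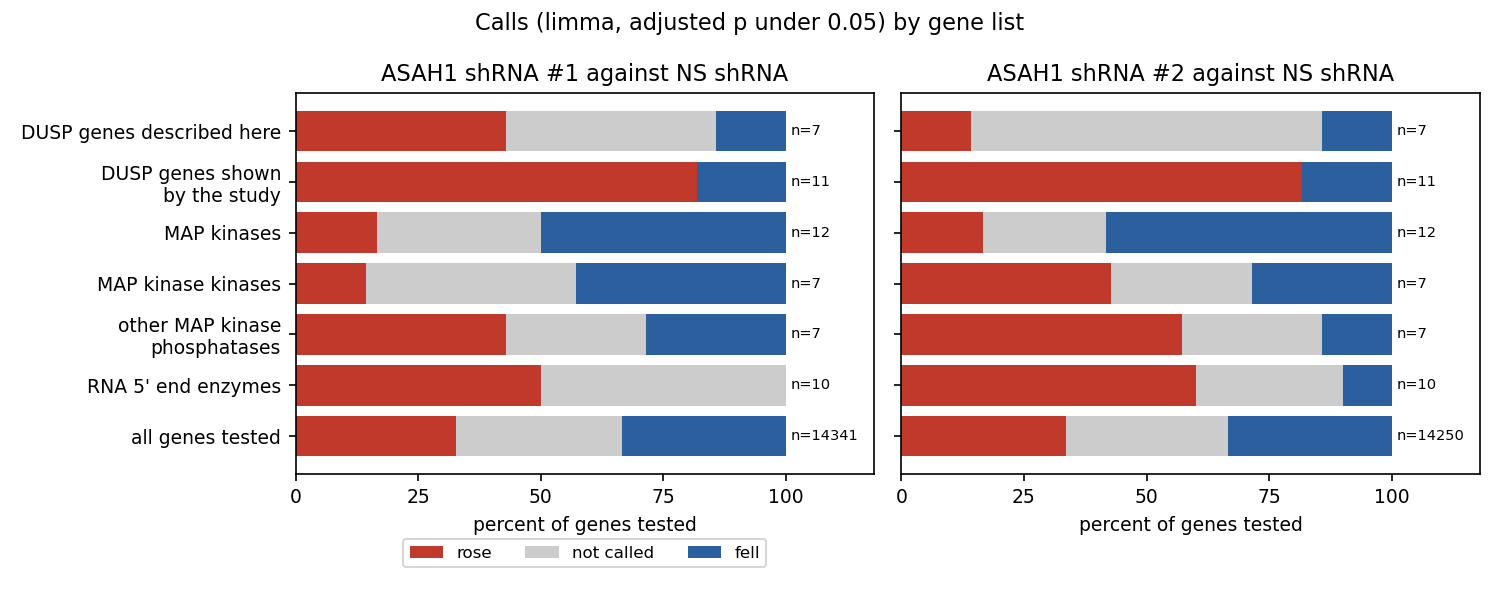
Percent of the genes tested in each list that rose, fell or were not called (limma, adjusted p below 0.05, deposited scale) with each ASAH1 shRNA against NS shRNA, with the number of genes tested beside each bar. The 8 DUSP genes described here (7 tested) hold more uncalled genes with shRNA #2 (5 of 7) than with shRNA #1 (3 of 7), and the 11 genes of the study's heatmap hold none, a list that the study presented as altered in these libraries.

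The 11 DUSP genes of the study's heatmap were all called with both hairpins, 9 up and 2 down each time, with medians of 0.62 and 0.48, but the study presented that list as altered in these libraries, so its direction is not taken as independent evidence. Its extremes were *DUSP2*, which rose by 2.10 and 1.93 (limma, adjusted p = 1.43e-05 and 9.01e-06), and *DUSP19*, which fell by 1.53 and 2.18 (limma, adjusted p = 0.004 and 0.000809), the first of them not called relative to *ACTB* (limma, adjusted p = 0.0999). Both were low genes, *DUSP2* with 22 to 142 reads in a library and *DUSP19* with 3 to 43. Set beside them, the 6 changes among the members ran from -1.25 to 0.59.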

How the data were processed

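RNA-seq of 9 MDA-MB-231 libraries was used, in 3 groups of 3 taken from the labels. Per the labels, poly(A) RNA gave strand-specific libraries, although the design text speaks of ribosomal RNA depletion. The authors trimmed reads (Trimmomatic 0.36), aligned them to hg38 (STAR 2.7.1a), counted UCSC genes with htseq-count on the reverse strand and ran DESeq2 1.28 once per *ASAH1* hairpin, always with the same NS shRNA libraries. The deposited tables hold a signal per library, the read count divided by the DESeq2 size factor. They also hold the authors' mean signal, log2 fold change with its standard error, a Wald score, p-value and adjusted p-value, and none of these was used. A second paragraph of the methods names other tools (RSEM and edgeR).

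Each table was fitted alone with limma 3.58.1 (R 4.3.3), with an intensity trend, on log2(value + 1) for genes whose mean was at least 10, calling adjusted p below 0.05. Every value was a whole number of reads (within 0.01) times 1 factor per library, so reads were recovered, with 0 differences between tables for NS shRNA. Hairpins were compared by edgeR 4.0.16 with TMM, 9 libraries together. DESeq2 1.42.0 was an alternative. The fits were also run on simulated reads with few changed genes, unlike these data, so that run does not bear on the calls here. Depth was 23806003 to 49659106 reads on genes, and genes with few reads are the least precise. 28 symbols turned into dates were restored, and 0 sample columns were left unmatched. Levels and positions use GENCODE v44 and hg38, and exon length there may differ from the UCSC genes counted. Figures were drawn with Python 3.11.15, pandas 2.3.3 and matplotlib 3.10.9.

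The members and lists were chosen with earlier results of these data known. Named are *ASAH1*, all members, the called gene with the largest and smallest log2 fold change of each list in each comparison with NS shRNA, and for each member called against NS shRNA the 3 genes of most similar profile. *ACTB* was added after its value was seen. The changes of the named genes and the counts of calls against NS shRNA were recomputed with another pseudocount (0.1 or 5), another minimum mean (none or 50), no trend in limma, scaling to the upper quartile, DESeq2 or edgeR on recovered reads, all 9 libraries fitted at once, a replicate block, and every library omitted in turn. The comparison of the hairpins had DESeq2, the minimum means, upper quartile normalization, the block, limma on 9 libraries and omitted libraries, and *DUSP9* only the pseudocounts and omitted libraries. Levels, neighbours and overlaps had none. Replicates differed by more than sampling noise (chi-square per gene 5.27 to 23.23). Nothing in the labels says whether replicates are separate cultures, so p-values measure the spread between these libraries.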

Additional observations from a re-analysis of the deposited data

Results flagged for a closer look

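These 5 results stand out because the effects of the hairpins against the same NS shRNA libraries differed when the difference itself was tested (edgeR, 9 libraries). With shRNA #2 relative to shRNA #1, *DUSP4* was higher by 0.733 (adjusted p = 5.2e-08) and *DUSP7* by 0.364 (adjusted p = 0.000423) on the log2 scale by edgeR, in 3 of 3 libraries each. The difference was -0.729 for *DUSP10* (adjusted p = 4.31e-07), -0.382 for *DUSP11* (adjusted p = 0.000117) and -1.03 for *DUSP18* (adjusted p = 0.000516) by edgeR, lower in 3 of 3 libraries each. Such differences were common in these data: 63.3% of all genes tested passed the same rule. The limma fit of all 9 libraries, added after the data had been seen, gave 0.739, 0.368, -0.722, -0.375 and -1.01 in the same order, all past the threshold. The causes were not tested.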

How the results depend on the processing

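Under every alternative but the scaling to *ACTB*, 17 of 21 changes of members and 21 of 22 of the other named genes, whose alternatives were added after the data had been seen, kept their direction and call, and 16 of 16 counts of calls stayed within 1.5 times. With shRNA #1, the uncalled change of *DUSP7* reversed to 0.00385 with upper quartile rescaling, and leaving out 1 library gave -0.0385 to 0.0377 (0.0377 without NS shRNA replicate 3, 0.0107 and 0.0101 without shRNA #1 replicates 2 and 3). That of *DUSP23* ran from -0.106 to 0.214, turning without NS shRNA replicate 3. The calls of *DUSP28* and *NUDT16* (also lost with the block, limma, adjusted p = 0.0772) with shRNA #1 were lost and a *DUSP10* call with shRNA #2 was gained as given above. The scaling to *ACTB*, added after the data had been seen, reversed *DUSP4* (0.103), *DUSP7* (0.881) and *DUSP18* (0.638) with shRNA #1 and *DUSP4* (0.478) and *DUSP10* (0.391) with shRNA #2, turned *MAPK11* with shRNA #1 (0.0109) and *PTPRJ* (0.0988) and *CMTR1* (0.292) with shRNA #2, and raised the members called from 4 to 6 with shRNA #1 (6 higher) and from 2 to 7 with shRNA #2 (6 higher, 1 lower). *ACTB* itself changed, which sets the size of these shifts. Of the calls among all genes on that scale, 96.4% were higher with shRNA #1 and 85.3% with shRNA #2. Leaving out each library gave 3 to 4 members called with shRNA #1, 2 with shRNA #2 and 5 between the hairpins.

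Same-numbered replicates deviated apart between NS shRNA and each hairpin, and between the hairpins not every pair passed 0.1 (correlations from -0.51 to -0.207 between NS shRNA and shRNA #1, from -0.6 to -0.14 between NS shRNA and shRNA #2, and from 0.0278 to 0.487 between the hairpins), so the numbers were not taken to pair the samples. With the replicate number as a block, members called went from 4 to 3 with shRNA #1, where *DUSP28* was lost (limma, adjusted p = 0.0783), and stayed at 2 with shRNA #2 and at 5 between the hairpins. All genes called went from 9479 to 8237, from 9538 to 8526 and from 9311 to 8726. Differently numbered libraries correlated as well, from -0.417 (shRNA #1 replicate 3 with shRNA #2 replicate 2) to 0.529 (NS shRNA replicate 3 with shRNA #2 replicate 2). NS shRNA replicate 1, shRNA #1 replicate 3 and shRNA #2 replicate 3 correlated with each other, from 0.419 to 0.487. Neither the block nor the other fits model such a structure shared across numbers, and its source was not tested. Depth limits *DUSP9* most, followed by *DUSP18* and *DUSP28*. The other causes were not tested.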

Other observations

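The 6 DUSP symbols that neither the study's heatmap nor the members held were low. *DUSP21* had 0 reads in every library and *DUSP27* at most 1. *DUSP15*, an atypical phosphatase gene, had 11, 7 and 12 reads with NS shRNA, 24, 34 and 22 with shRNA #1 and 4, 6 and 2 with shRNA #2, so that its libraries did not overlap between any of the groups. *DUSP13* had 7, 5 and 7 reads with NS shRNA, 9, 13 and 13 with shRNA #1 and 0, 1 and 3 with shRNA #2, in the same order. These reads are not scaled for depth and were not tested. Groups without overlap were common: on scaled values, 69.2% of the genes tested with shRNA #1 and 70% with shRNA #2 against NS shRNA. Between the hairpins it was 67%. Each share is for a single pair of groups among the genes tested. The share without overlap between every pair of groups, or among genes with so few reads, is not given here.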
